A study of Mus musculus with 24 samples.

Results

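CD4 T cells from the bone marrow of mice given ruxolitinib together with cyclosporine (RUX+CSA, pools 22 to 24) were compared with CD4 T cells from mice given cyclosporine alone (CSA, pools 16 to 18), which gives the difference that ruxolitinib made on top of cyclosporine. The members were taken from the labels, as the 3 RUX+CSA and 3 CSA libraries of CD4 cells, and are 6 of the 24 libraries in the series. All mice were female CByB6F1 hybrids, aged 2 to 5 months, in which immune-mediated bone marrow failure had been set up (labelled BMF), so the untreated mice carry the disease too and no healthy animals are among the groups used here. Each library is a pool of cells sorted by flow cytometry from 2 to 3 mice of a group. The other CD4 groups were BMF mice without drug (pools 13 to 15) and BMF mice given ruxolitinib alone (RUX, pools 19 to 21), and the same 4 treatments were sampled in CD8 cells. Ruxolitinib was given at what the series title calls a low dose, and the labels state neither the amount nor the duration. P-values measure the spread between 3 pools per group, estimated for the CD4 tests over all 4 CD4 groups together.

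Cyclosporine blocks calcineurin, the calcium-activated phosphatase that sends NFAT factors into the nucleus after T cell receptor stimulation, and with it the transcription of many cytokine genes. Ruxolitinib blocks the kinases JAK1 and JAK2, which sit on cytokine receptors and phosphorylate STAT factors, among them STAT5 downstream of interleukin-2 and related cytokines. In immune marrow failure T cells of this kind, and the interferon gamma they secrete, are known for destroying blood-forming cells, and both drugs act on the cells sorted here.

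The 6 libraries held 17.7 to 31 M counted read pairs, and 13567 to 16216 genes had a read. Pearson's r of log2 CPM (read counts scaled to a total of 1 M) over 9100 expressed genes, which are not independent, lay between 0.966 and 0.981 within the groups and between 0.961 and 0.975 across them. T cell transcripts were present in all 6 libraries: the 18 T cell identity genes summed to 13810 to 15640 CPM under CSA and 15160 to 16370 in RUX+CSA, and none passed the test. Cd4 read 1456, 1752 and 1342 CPM under CSA and 1580, 1737 and 1404 in RUX+CSA, whereas Cd8a stayed between 1.20 and 6.65 CPM. Transcripts of other marrow cells were present as well. The 19 neutrophil and granulocyte markers summed to 19000, 3855 and 7861 CPM in CSA pools 16 to 18 and to 9920, 11170 and 9244 CPM in RUX+CSA pools 22 to 24, with pool 16 far above the other 5 and pool 17 below them. The groups overlapped, none of the 19 passed, and 13 lay below 0 (median log2 -0.13). Among the untreated libraries pool 14 stood apart, with an r of 0.864 to 0.929 with the other CD4 libraries and 101.8 CPM of these markers. B cell markers stood higher in all 3 RUX+CSA pools, most in pool 22, than in any other CD4 library, and macrophage markers were mostly lower in RUX+CSA. Their values are given beside the genes they move with.

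Of 13175 genes tested with edgeR's quasi-likelihood test, 37 passed a Benjamini-Hochberg adjusted p of 0.05, which is 0.281% of the genes: 24 were higher in RUX+CSA (0.182%) and 13 lower (0.0987%). All 37 had groups that did not overlap, as did 16.9% of all genes tested, and 25 differed by more than 2-fold. The smallest adjusted p was 0.00897, shared by Dpysl2, Cd200 and Ms4a1. Over all genes the median log2 difference was -0.02, with 6177 genes above 0 and 6998 below. An unadjusted p under 0.05 was found for 1315 genes (9.98%). The number of calls rested on single pools: without RUX+CSA pool 22 it was 1, without pool 23 it was 1, without CSA pool 17 it was 6, without CSA pool 16 or 18 it was 17, and without RUX+CSA pool 24 it was 31. When the mean B and plasma cell marker level of each library was added as a covariate, chosen after seeing the data, no gene passed (680 at an unadjusted p under 0.05). In that model 87.1% of the covariate's variance lay between the 4 CD4 groups, so the covariate and the treatment largely coincide and cannot be told apart there.

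**Figure D1:**
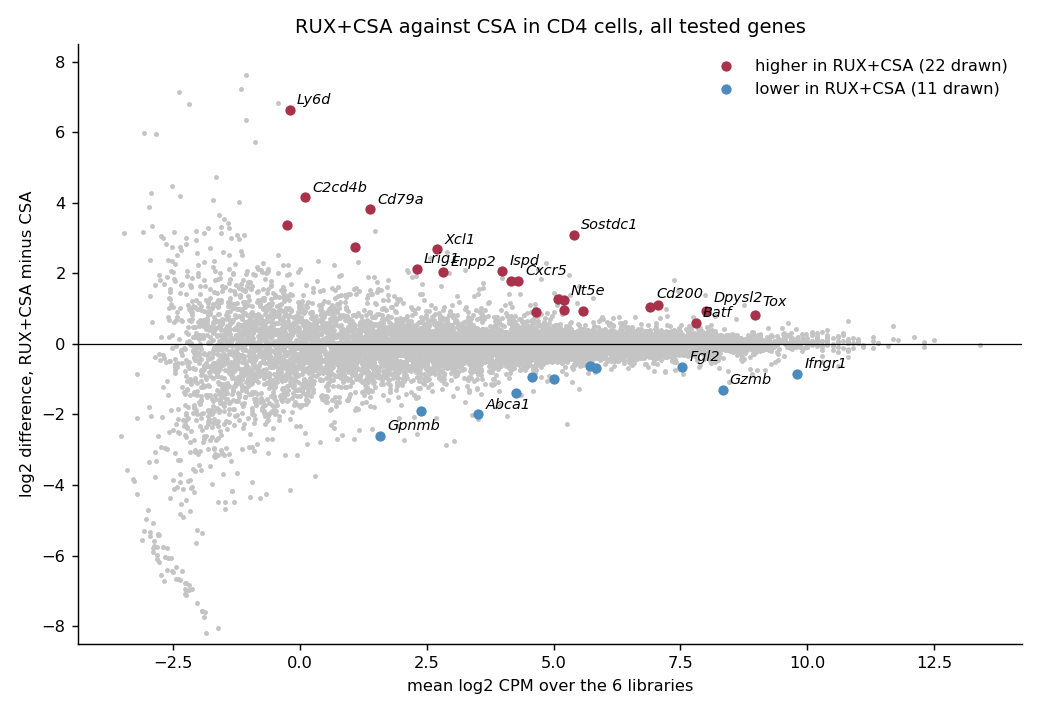
Mean log2 CPM over the 6 libraries (horizontal) against the log2 difference, RUX+CSA minus CSA (vertical). Each point is a tested gene, and any gene beyond the limits of the vertical axis is not drawn. Genes past the threshold are in red (22 higher) and blue (11 lower). The 4 further genes past the threshold had a group at 0 in every library and are not drawn. The red and blue points lie at the outer edge of the cloud over the whole range of expression.

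Genes of follicular helper T cells, the CD4 subset that helps B cells and is defined by Cxcr5 and Bcl6, were among those that rose. Cxcr5, the receptor for the follicle chemokine CXCL13 (chr9:44511787-44526421, minus strand, mm10), read 11.5, 7.25 and 13.6 CPM in CSA pools 16 to 18 and 45.8, 32.2 and 33.9 CPM in RUX+CSA pools 22 to 24. Every RUX+CSA pool was above every CSA pool, a log2 difference of 1.79 (SE 0.28, edgeR adjusted p = 0.0195). Cd200, a surface glycoprotein that inhibits myeloid cells through its receptor, read 92.6, 92.7 and 64.5 CPM under CSA and 184, 177 and 153 CPM in RUX+CSA (log2 1.04, SE 0.14, edgeR adjusted p = 0.00897). Sostdc1, a secreted antagonist of BMP and Wnt signalling, was not on the list and had the largest rise among the 23 called genes whose log2 CPM averaged 3 or more: 22.5, 12.4 and 10.2 CPM in CSA against 156, 144 and 86.2 CPM in RUX+CSA, 8.53-fold (log2 3.09, SE 0.36, edgeR adjusted p = 0.0107).

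Of the 15 follicular helper genes tested, 2 rose (Cd200 and Cxcr5), beside 0.182% of all genes. Of the 15, 14 lay above 0 and 10 had all RUX+CSA pools above all CSA pools, beside 46.9% and 8.15% of all genes tested. Their median log2 difference was 0.60, beside -0.02 for all genes. Sh2d1a, the adaptor SAP, read 112, 103 and 101 CPM under CSA and 158, 146 and 174 CPM in RUX+CSA (edgeR adjusted p = 0.0534). Izumo1r, the folate receptor 4 of regulatory and follicular cells, had the same adjusted p with a log2 value of 0.76. The transcription factors Bcl6 (log2 0.61, edgeR adjusted p = 0.362) and Tcf7 (0.79, 0.398) and the receptor Pdcd1 (0.44, 0.411) did not pass either. Il21, the cytokine of these cells, overlapped at 154, 230 and 69.2 against 123, 199 and 165 CPM. Maf was the exception in direction (log2 -0.42, adjusted p = 0.447). Summed over the list, the level was 2133 to 2319 CPM under CSA and 2882 to 3010 CPM in RUX+CSA, with 2466 to 2799 in untreated cells and 3026 to 3066 under ruxolitinib alone. The CSA pools were the lowest of the 12, and the RUX+CSA pools lay between the untreated and the ruxolitinib pools.

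B cell transcripts moved with these genes. Ms4a1, which encodes CD20, had no read in any CSA or RUX library and 467, 436 and 71 reads in RUX+CSA pools 22, 23 and 24. Against a floor of 3 reads per CSA library, Ms4a1 was at least 107-fold higher (edgeR adjusted p = 0.00897). Cd79a, a chain of the B cell receptor, read 0.98, 0.84 and 0.60 CPM against 19.1, 13.4 and 1.76 CPM, and Ly6d, a surface marker of early B lineage cells, passed too with 10.0, 7.52 and 2.67 CPM in RUX+CSA. Of 15 B and plasma cell markers tested, 3 rose, beside 0.182% of all genes. All 15 lay above 0, beside 46.9% of all genes, with a median log2 of 3.19. Tnfrsf17 had no read in any of the 12 libraries. The markers summed to 19.1 to 33.0 CPM under CSA and to 151, 90.8 and 44.0 CPM in RUX+CSA pools 22 to 24. Pool 24 thus lay far closer to the CSA pools than pool 22 did. Cxcr5 is also carried by B cells. In pool 24, with the weakest B cell signal of the 3 RUX+CSA pools, Cxcr5 was 33.9 CPM, Cd200 153 CPM and Sostdc1 86.2 CPM. All 37 genes that passed had groups apart, so these values lying above every CSA pool say nothing about the part of B cell RNA. With the B cell marker covariate the log2 values were 1.38 for Cxcr5, 0.63 for Cd200 and 1.56 for Sostdc1, with edgeR adjusted p from 0.934 to 0.942. The part of B cell RNA in the rise of the follicular genes was not tested further. In bulk libraries, more cells of a type and more RNA per cell cannot be told apart.

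**Figure D2:**
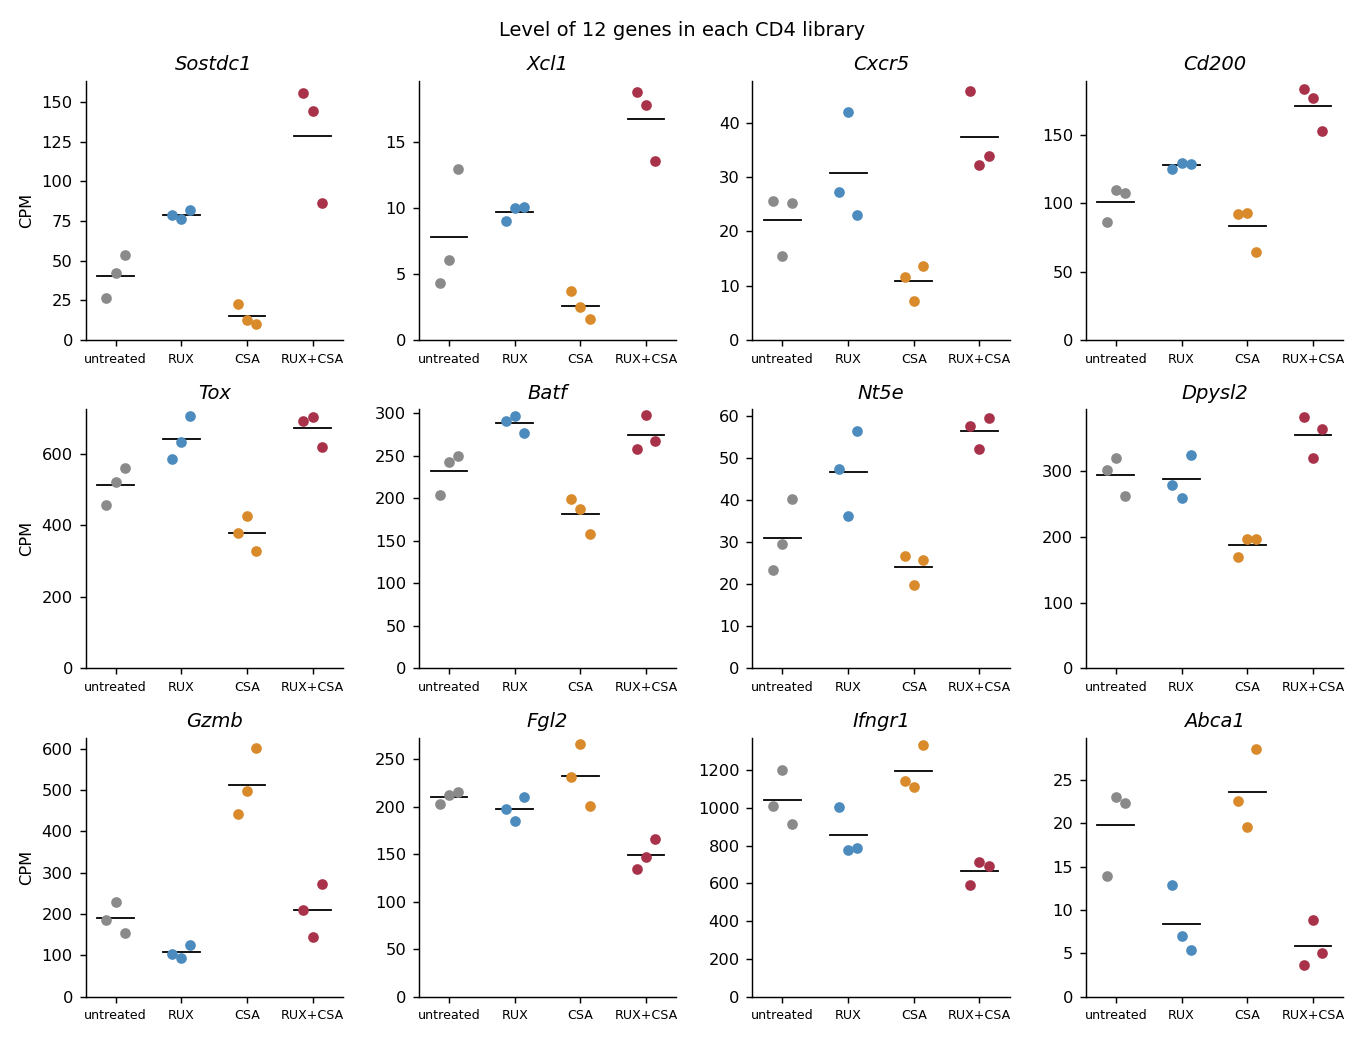
Level in CPM (vertical, from 0) of 12 genes in the 12 CD4 libraries by treatment, one point per pool with the mean of 3 pools as a line. For the first 8 genes all 3 RUX+CSA points lie above the 3 CSA points, and for Gzmb, Fgl2, Ifngr1 and Abca1 all 3 lie below them.

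Some genes of chronic stimulation and of inhibitory signalling also rose. Tox, an HMG-box factor of T cells under lasting antigen exposure, read 378, 427 and 330 CPM under CSA and 693, 704 and 619 CPM in RUX+CSA (log2 0.83, SE 0.11, edgeR adjusted p = 0.0107). Batf, an AP-1 family factor needed for follicular and Th17 cells, read 199, 188 and 158 CPM against 258, 297 and 268 CPM (log2 0.60, SE 0.11, edgeR adjusted p = 0.027). Nt5e, which encodes the adenosine-producing enzyme CD73, was 24.1 ± 3.74 CPM (SD, n = 3) in CSA and 56.6 ± 3.83 CPM in RUX+CSA. The groups were clear of each other for all 3 genes, as for all 37 that passed and 16.9% of all genes tested. With Cd200, these made 4 of the 26 inhibitory receptor and exhaustion genes tested, beside 0.182% of all genes. Of the 26, 17 lay above 0, beside 46.9% of all genes (median log2 0.21). The classical receptors Pdcd1 (log2 0.44) and Lag3 (0.51) did not pass (edgeR adjusted p = 0.411 and 0.605). Eomes, a T-box factor of the same list, read 22.4, 17.2 and 20.7 CPM against 75.5, 35.5 and 51.7 CPM, with an adjusted p of 0.248. Klrg1 and Entpd1 pointed downward without passing.

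The other genes that rose belong to several systems. Xcl1, a chemokine that draws XCR1-bearing dendritic cells, was at 3.68, 2.51 and 1.57 CPM under CSA and 18.8, 17.8 and 13.6 CPM in RUX+CSA (6.41-fold, edgeR adjusted p = 0.0107). Dpysl2, a microtubule-binding protein also called CRMP2, read 170, 196 and 197 CPM against 383, 319 and 363 CPM (log2 0.92, SE 0.11). It kept an adjusted p under the threshold in 5 of the 6 analyses that left out a pool, as did only Gpnmb among the 37 genes. Tbc1d4, a Rab GTPase activator in glucose transporter traffic, rose from 90.6 ± 14.2 to 195 ± 24.6 CPM (SD, n = 3). Enpp2, which encodes the lysophosphatidic acid enzyme autotaxin, rose from 3.47 to 14.2 CPM and Lrig1, a brake on growth factor receptors, from 2.33 to 10.2 CPM. Untreated cells had 14.1 CPM of Enpp2 and 6.43 CPM of Lrig1. Lrig1 overlaps Slc25a26, and Sh3rf1, a JNK scaffold that rose 1.87-fold, overlaps 1700001D01Rik; the counting used no strand, so the shared reads cannot be assigned. Smaller rises were those of Tnfrsf26 (1.96-fold) and Phactr2 (1.9-fold), and Synpo, an actin-associated protein, rose 2.42-fold (log2 1.27). With the B cell marker covariate Synpo came to a log2 of 0.18 (edgeR adjusted p = 0.997) and Dpysl2 to 0.97 (0.831). The remaining genes that rose were Ksr2, C2cd4b, Fam81a and 1700019D03Rik, of which only the last exceeded a mean of 10 CPM in RUX+CSA. In RUX+CSA, 23 of the 24 genes that rose were above their untreated mean. Fam81a was not, at 2.59 CPM against 3.97 CPM untreated.

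Sostdc1 and Ispd, which rose together, are neighbours on chromosome 12, at chr12:36314169-36318452 and chr12:36381450-36689503 on the plus strand, with 63 kb between them. Ispd, an enzyme of dystroglycan glycosylation, read 11.1, 6.45 and 6.34 CPM under CSA and 42.0, 39.0 and 19.9 CPM in RUX+CSA (log2 2.07, SE 0.29, edgeR adjusted p = 0.0107). For both genes pool 24 was the lowest of the RUX+CSA pools and pool 16 the highest of the CSA pools. With the B cell marker covariate Ispd came to a log2 of 0.45 (adjusted p = 0.992).

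Gzmb, Fgl2 and Ifngr1, which act in T cell effector function and interferon sensing, were among the 13 genes that fell. The log2 differences of P2ry6, Pdgfc, Gpnmb, Abca1, Ly6g5b and 5830411N06Rik, described further on, were larger than that of Gzmb. Gzmb, the granule protease granzyme B (chr14:56258858-56262260, minus strand), read 442, 497 and 601 CPM under CSA and 209, 146 and 272 CPM in RUX+CSA. All RUX+CSA pools lay below all CSA pools, and the gene fell by 1.30 on the log2 scale (SE 0.22, edgeR adjusted p = 0.0388). It read 186, 230 and 154 CPM in untreated cells and 103, 94.7 and 125 CPM with ruxolitinib alone. Fgl2, a secreted fibrinogen-like protein that regulatory and effector T cells make, read 231, 266 and 201 CPM against 135, 147 and 166 CPM (log2 -0.64, edgeR adjusted p = 0.0211). Fgl2 overlaps Ccdc146, and the unstranded counts cannot separate reads of the 2 genes where they overlap. Ifngr1, the ligand-binding chain of the interferon gamma receptor, read 1143, 1108 and 1333 CPM against 594, 713 and 692 CPM (log2 -0.84, SE 0.13, edgeR adjusted p = 0.0138). With the B cell marker covariate Gzmb came to a log2 of -0.53 and Fgl2 to -0.33 (edgeR adjusted p = 0.991 for both). Ifngr1 came to -0.55 in that model (edgeR adjusted p = 0.963).

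The control regions of these genes were read from RefSeq (GRCm38.p6), since STAT dimers, the factors downstream of the inhibited kinases, bind a palindrome of the letters TTCNNNGAA. The 250 bases before the annotated start were searched on both strands, and matches are in capitals. Gzmb and Ifngr1, which fell, are shown with Fgl2, which fell and holds a match, and with Irf1, an interferon gamma response gene that holds a match in the first of its 2 listed promoters and did not pass the test.
Gzmb, chr14:56262335-56262584, minus strand: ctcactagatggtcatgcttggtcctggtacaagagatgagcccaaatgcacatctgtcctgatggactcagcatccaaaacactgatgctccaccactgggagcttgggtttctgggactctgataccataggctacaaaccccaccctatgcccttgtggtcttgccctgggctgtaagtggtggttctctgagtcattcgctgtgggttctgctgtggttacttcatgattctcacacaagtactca
Fgl2, chr5:21372423-21372672, plus strand: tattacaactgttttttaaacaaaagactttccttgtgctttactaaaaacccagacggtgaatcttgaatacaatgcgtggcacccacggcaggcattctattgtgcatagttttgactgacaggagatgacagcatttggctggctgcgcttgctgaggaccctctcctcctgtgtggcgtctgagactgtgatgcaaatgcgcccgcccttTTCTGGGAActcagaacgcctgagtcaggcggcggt
Ifngr1, chr10:19591699-19591948, plus strand: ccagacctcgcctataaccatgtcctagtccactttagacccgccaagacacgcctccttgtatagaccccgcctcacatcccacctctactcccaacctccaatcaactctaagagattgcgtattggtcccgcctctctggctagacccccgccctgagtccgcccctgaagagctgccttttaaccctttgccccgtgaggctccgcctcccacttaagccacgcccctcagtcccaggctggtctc
Irf1, chr11:53769764-53770013, plus strand: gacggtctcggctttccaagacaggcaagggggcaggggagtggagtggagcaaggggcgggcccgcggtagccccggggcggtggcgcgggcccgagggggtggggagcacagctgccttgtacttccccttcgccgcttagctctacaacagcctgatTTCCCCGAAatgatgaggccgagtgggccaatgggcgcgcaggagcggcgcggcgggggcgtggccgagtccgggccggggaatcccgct
The palindrome stood in 2 of the 23 genes past the threshold that had a listed promoter (8.7%, Fgl2 and 1700019D03Rik), in 7.35% of the 9995 tested genes with one and in 8.13% of all 27025. It stood in 11 of 25 interferon gamma response genes (44%) and in 7 of 29 STAT5 targets (24.1%). The core of an interferon-stimulated element, searched on both strands as 2 copies of GAAA with any 2 bases between them, stood in 12 of the same 25 interferon gamma response genes (48%) and 14 of 31 type I response genes (45.2%), beside 3.31% of tested genes and none of the 23. A promoter holding both motifs was counted for each. A match is a description of the sequence only.

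Other cytotoxic genes did not pass one by one. Of the 31 tested, 2 fell (Gzmb and Fgl2) and none rose, beside 0.0987% and 0.182% of all genes. Below 0 lay 20, beside 6998 of all 13175 genes, and the median log2 was -0.08. Gzmc, another granzyme, read 15.1, 30.4 and 21.2 CPM against 2.10, 2.49 and 5.39 CPM (edgeR adjusted p = 0.301). Ccl5, a chemokine of effector cells, read 1150, 1551 and 1790 CPM against 1005, 1121 and 1021 CPM (adjusted p = 0.164). The pore-forming Prf1 (log2 -0.47, adjusted p = 0.515) and the death ligand Fasl (-0.08, 0.964) overlapped between groups. Gzmk lay the other way, at 19.0, 23.3 and 27.4 CPM against 53.9, 31.5 and 65.0 CPM (adjusted p = 0.601). The list summed to 9350 to 10350 CPM under CSA and 7583 to 8629 CPM in RUX+CSA, with 6027 to 8019 CPM in untreated cells and 6443 to 7174 CPM under ruxolitinib alone. The CSA pools were the highest of the 12.

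Among the other lower genes were metabolic, calcium and myeloid genes. Abca1, the cholesterol efflux pump, read 22.6, 19.6 and 28.6 CPM under CSA and 3.69, 8.88 and 5.11 CPM in RUX+CSA (3.98-fold lower, edgeR adjusted p = 0.0388). It was the one member of 33 cholesterol and fatty acid genes tested that changed, beside 0.281% of all genes. Epas1, the hypoxia factor HIF-2 alpha, was lower at 23.1 ± 2.03 against 45.6 ± 10.4 CPM (SD, n = 3 each), and Atp2b4, a plasma membrane calcium pump, at 42.1 against 65.2 CPM. Untreated cells had 19.3 CPM of Epas1 and 50.3 CPM of Atp2b4. Sytl1, a vesicle traffic protein, and Pik3ap1, the PI3-kinase adaptor BCAP, fell by 0.94 and 0.67 on the log2 scale. Gpnmb, a glycoprotein of phagocyte lysosomes, read 6.86, 5.90 and 9.31 CPM against 1.85, 1.03 and 0.74 CPM (edgeR adjusted p = 0.0107). P2ry6, a UDP receptor, and Pdgfc, a growth factor, had no read in RUX+CSA and were at least 9.66-fold and 9.28-fold lower against a floor of 3 reads per library. Their CSA levels were 1.28 and 1.23 CPM. Ly6g5b and 5830411N06Rik completed the 13. Tmem176a, named by the fixed rule as next in rank, read 23.9, 24.4 and 15.7 CPM against 4.12, 4.34 and 7.54 CPM and did not pass (adjusted p = 0.0531).

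Macrophage markers moved in the direction of these genes. None of the 28 tested passed, 21 lay below 0, beside 6998 of all 13175 genes, and the median log2 was -0.52. All RUX+CSA pools lay below all CSA pools in 9 of the 28 and above them in 1, beside 1146 and 1074 of all genes. Vcam1 read 41.0, 21.4 and 27.9 CPM under CSA and 5.96, 14.9 and 5.84 CPM in RUX+CSA, and Spic 4.76, 2.39 and 5.83 against 1.63, 1.29 and 1.19 CPM. No member was at 0 in all libraries of a group. The summed level, most of it from Lyz2 and Ctsb, overlapped, at 1707 to 3935 CPM under CSA and 2587 to 2857 CPM in RUX+CSA. With the macrophage marker mean as a covariate, added after seeing the data, 42 genes passed, 26 of them among the 37. Abca1 then had a log2 of -1.78 (adjusted p = 0.0736) and Gzmb -1.29 (adjusted p = 0.0969). Cxcr5 (1.52, adjusted p = 0.0551), Fgl2 (-0.61, 0.0554), Atp2b4 (-0.67, 0.0654) and Pik3ap1 (-0.58, 0.102) did not pass in that model either. All 9 basophil and mast cell genes lay above 0 (median log2 0.87) and all 12 erythroid genes below 0 (-0.59), and none passed. Over all genes 46.9% lay above 0. The summed levels overlapped for both lists. Basophil and mast cell genes gave 157, 37.6 and 72.8 CPM in CSA pools 16 to 18 and 212, 213 and 135 CPM in RUX+CSA pools 22 to 24. Erythroid genes gave 493, 354 and 289 CPM against 176, 156 and 487 CPM. The part of these cells in the differences was not tested further.

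**Figure D3:**
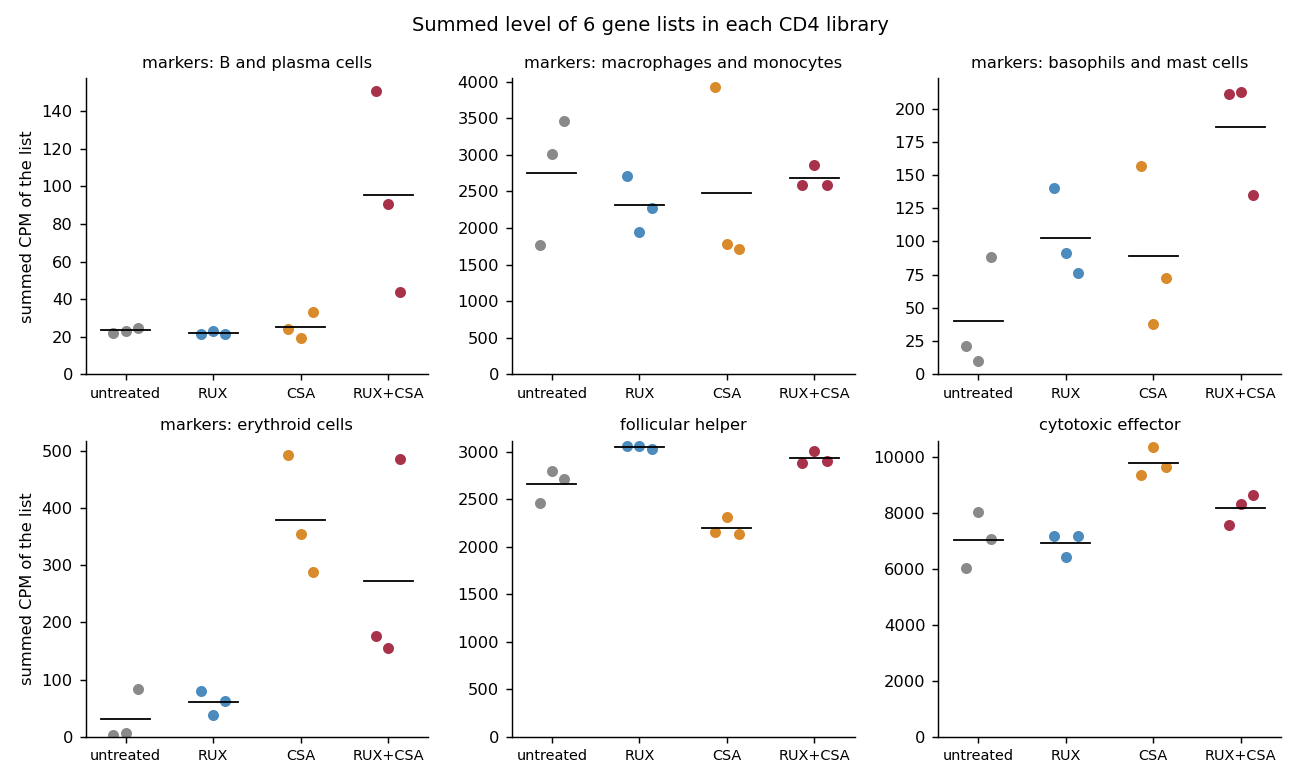
Summed CPM (vertical, from 0) of 6 gene lists in the 12 CD4 libraries by treatment, one point per pool with the mean as a line. B and plasma cell markers were 44.0 to 151 CPM in RUX+CSA and 19.1 to 33.0 CPM in the 9 other libraries, follicular helper genes were lowest in CSA, and cytotoxic genes were highest there.

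Transcripts of genes downstream of JAK signalling gave few calls. The values are RNA levels, and JAK activity itself was not measured here. Among 36 STAT5 and common gamma chain targets, 1 fell (Gzmb, also in the cytotoxic list), beside 0.0987% of all genes. Of the 36, 26 lay below 0, beside 6998 of all 13175 genes. The median log2 was -0.15, beside -0.02 for all genes. All RUX+CSA pools lay below all CSA pools in 7 of the 36 and above them in 3, beside 1146 and 1074 of all genes. Socs2, a feedback inhibitor induced by STAT5, read 39.3, 40.5 and 36.4 CPM under CSA and 10.4, 18.9 and 16.7 CPM in RUX+CSA; the groups were apart by a wide gap, with a log2 of -1.34 (SE 0.30, edgeR adjusted p = 0.114). Cish, another such inhibitor, read 202, 185 and 112 CPM against 87.7, 119 and 88.3 CPM (adjusted p = 0.555). Pim1, a survival kinase, read 81.2, 77.8 and 77.4 CPM against 49.6, 58.7 and 60.9 CPM (adjusted p = 0.419). Mcl1 (log2 -0.37, adjusted p = 0.114) and Myc (-0.42, 0.287) had groups apart without passing, whereas Bcl2 (-0.17, 0.918) and Il2ra (-0.26, 0.904), the interleukin-2 receptor alpha chain, overlapped.

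Interferon gamma response genes did not differ in a common direction. None of 40 passed, 20 lay on each side of 0, and the median log2 was 0.01. Ifng itself read 187, 182 and 86.3 CPM under CSA and 193, 188 and 200 CPM in RUX+CSA (edgeR adjusted p = 0.831). Irf1, whose promoter is shown above, read 398, 461 and 318 CPM against 350, 385 and 370 CPM (adjusted p = 0.9). CSA pool 18 was the lowest of the 6 libraries for Ifng and Irf1 alike. Gbp2 (log2 -0.01, adjusted p = 0.997), Socs1 (0.03, 0.992) and Socs3 (-0.13, 0.93) lay close to 0. The lowest p of the list was that of Gbp11, at 7.09, 4.58 and 7.96 against 1.03, 2.16 and 0.45 CPM (adjusted p = 0.143). In RUX minus untreated, 37 of the 40 interferon gamma response genes lay above 0 (median log2 0.25), beside 6719 of all 13175 genes. In CD8 with all libraries 4 of the 40 did (-0.29), beside 5817 of 12484 genes. None of 41 type I interferon response genes passed in CD4 (median log2 -0.03). Their mean log2 CPM was 5.51, 5.35 and 4.66 in CSA pools 16 to 18 and 5.29, 5.07 and 5.08 in RUX+CSA pools 22 to 24. Among 27 cytokine receptor genes Ifngr1 was the one that changed, beside 0.281% of all genes. The interleukin-12 receptor chains Il12rb2 (log2 -0.79, adjusted p = 0.0534) and Il12rb1 (-0.53, 0.164) lay below 0 with groups apart. Jak1 (0.23, 0.378) and Jak2 (0.09, 0.85), the targets of ruxolitinib, did not pass.

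**Figure D4:**
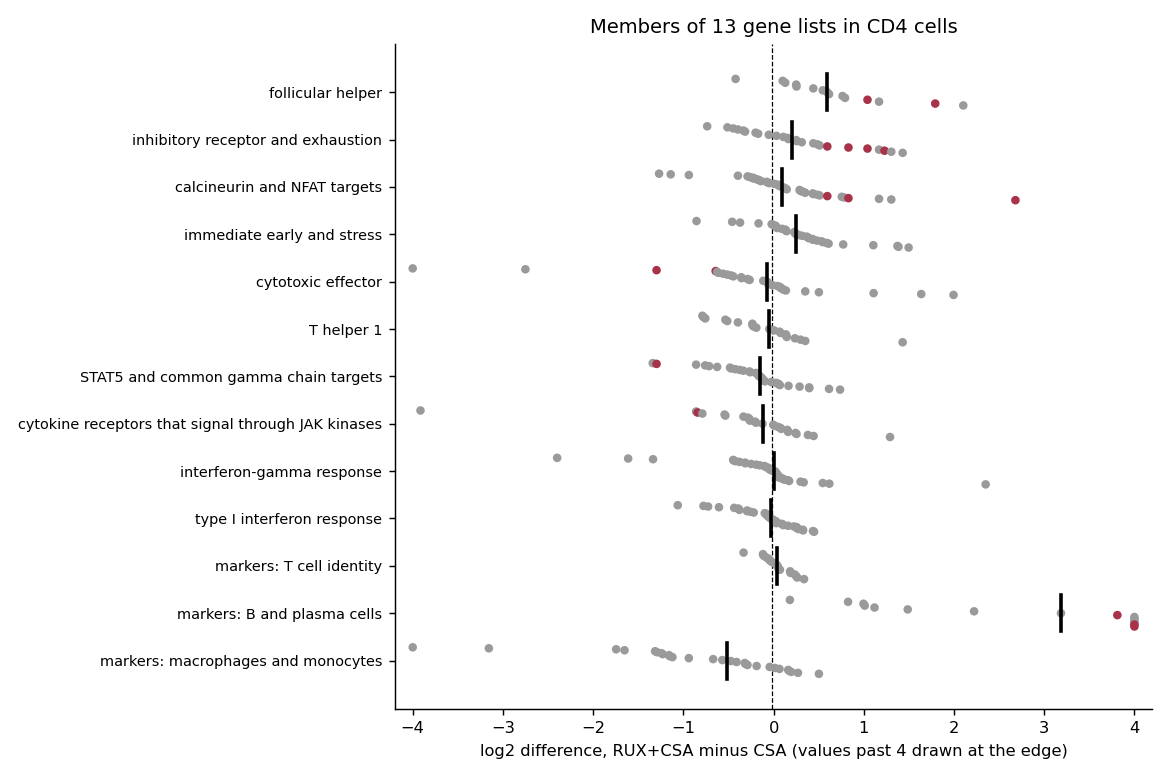
Log2 difference, RUX+CSA minus CSA (horizontal), of every tested member of 13 gene lists, with genes past the threshold in red, the list median as a bar and the median of all genes as a dashed line. The follicular helper median is 0.60 and the B and plasma cell marker median 3.19, while the interferon medians lie at the dashed line.

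Among 40 calcineurin and NFAT targets tested, 3 rose (Xcl1, Batf and Tox), beside 0.182% of all genes, and none fell. Of the 40, 25 lay above 0, beside 46.9% of all genes, and the median log2 was 0.09. Rcan1, a feedback inhibitor of calcineurin that NFAT induces, read 16.2, 14.5 and 18.1 CPM under CSA and 18.2, 21.4 and 21.0 CPM in RUX+CSA (edgeR adjusted p = 0.694). Nr4a1, an orphan receptor induced by antigen receptor signals, read 142, 119 and 251 CPM against 343, 248 and 275 CPM (adjusted p = 0.607). Csf2, the cytokine GM-CSF, pointed down (log2 -1.14, adjusted p = 0.327), with CSA pool 18 within the RUX+CSA range. Of 35 immediate early and stress genes none passed, though 29 lay above 0, beside 46.9% of all genes, and the median log2 was 0.25. Jun read 150, 97.2 and 73.6 CPM against 336, 237 and 333 CPM (adjusted p = 0.369) and Fos 257, 93.9 and 147 against 529, 324 and 436 CPM (adjusted p = 0.528). The same list had a median log2 of 0.24 for ruxolitinib against no drug in the 6 other CD4 libraries.

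Helper lineage, regulatory and cell division genes gave few calls. None of 21 Th1 genes passed: Tbx21, the Th1 master factor, had a log2 of 0.14 (edgeR adjusted p = 0.781). None of 11 Th2 genes passed, and of 9 Th17 genes tested 1 rose (Batf). Foxp3, which defines regulatory T cells, read 40.1, 33.2 and 36.4 CPM against 40.6, 30.1 and 35.8 CPM (adjusted p = 0.972), and Nt5e was the one of 31 regulatory genes that changed. None of 62 mitosis genes passed, with 45 below 0 and a median log2 of -0.09, and Mki67 overlapped at 190, 182 and 117 against 150, 110 and 125 CPM. None of 75 respiratory chain, 35 glycolytic and hypoxia-responsive, 48 S phase, 30 chaperone, 34 apoptosis or 48 MYC-linked ribosome assembly genes passed, and their medians lay between -0.05 and 0.05. Cytosolic ribosomal protein genes had 64 of 78 below 0 with a median log2 of -0.09 and no call. None of 25 costimulatory and 30 NF-kappa-B genes passed. Homing genes held 2 that rose among 33 (Xcl1 and Cxcr5), and naive and memory genes 1 among 27 (Cxcr5). Beside these counts, 0.182% of all genes rose. Batf, Nt5e, Xcl1 and Cxcr5 are also counted in other lists.

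Whether ruxolitinib acted otherwise in the presence of cyclosporine than without it was tested as the difference of RUX+CSA minus CSA and RUX minus untreated, which share no library. No gene passed (0% of 13175; edgeR, 629 at an unadjusted p under 0.05; DESeq2 called 17 and limma-voom 0). Ruxolitinib against no drug gave no call either (548 at an unadjusted p under 0.05). Dpysl2 had the smallest interaction p: it was 294 CPM untreated and 287 CPM under ruxolitinib, and the difference of differences was 0.96 (SE 0.16, edgeR adjusted p = 0.338). For Sh3rf1 it was 0.81 and for Ccl5 -0.83 (edgeR adjusted p = 0.797 for both). Of the 37 genes, 33 pointed the same way in RUX minus untreated, as did 55.4% of all genes. Sostdc1 was 40.6 CPM untreated and 78.9 CPM under ruxolitinib, Cxcr5 22.1 and 30.8 CPM, Tox 513 and 642 CPM, and Ifngr1 1043 and 857 CPM. The B and plasma cell markers had 3 of 15 above 0 there, and their summed level stayed between 21.3 and 24.7 CPM in all 6 libraries.

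In CD8 cells 2 libraries went against their labels. Over 8878 expressed genes the library labelled CSA pool 6 had an r of 0.964 to 0.971 with the other CSA libraries and 0.99 with the RUX libraries, and that labelled RUX pool 7 had 0.95 to 0.955 with the other RUX libraries and 0.979 to 0.982 with the CSA libraries. The CD8 results are therefore given with and without both. With all libraries, RUX+CSA against CSA called 10 of 12684 genes (0.0788%), and without the 2 libraries, which leaves 2 CSA pools, 110 of 12799 (0.859%). Of the 37 CD4 genes, Cxcr5 passed in CD8 with all libraries, and Cxcr5, Fgl2, 5830411N06Rik and Gpnmb passed without the 2. Cxcr5 in CD8 cells averaged 14.8 CPM under CSA and 40.9 CPM in RUX+CSA (log2 1.47, SE 0.19, edgeR adjusted p = 0.0364), and had a log2 of 1.71 without the 2 libraries (adjusted p = 0.000462). B cell markers were higher in CD8 RUX+CSA too (all 12 B and plasma cell markers tested in both cell types above 0, median log2 1.86). Fgl2 was next, at 304 against 125 CPM in CD8 (log2 -1.29, edgeR adjusted p = 0.05, at the threshold and not called), and had -1.49 without the 2 (adjusted p = 0.00233). Of 36 genes tested in both cell types, 21 had the same sign, beside 57.9% of all genes; without the 2 libraries 33 had, beside 62% of all genes. Gzmb (CD8 log2 -0.32), Ifngr1 (0.11), Tox (0.14) and Sostdc1 (-0.13, at 3.31 and 3.06 CPM) did not pass with all CD8 libraries. Without the 2 libraries the sign turned for Sostdc1 (1.98, adjusted p = 0.0553) and Ifngr1 (-0.08, 0.713), while Gzmb was -0.62 (0.0616) and Tox 0.41 (0.121), and none of these 4 passed. The difference between the cell types was not past the threshold for any gene (0% of 13476; edgeR, 893 at an unadjusted p under 0.05; DESeq2 called 14 and limma-voom 0; edgeR called 1 without the 2 libraries). Its smallest p was for Dpysl2 (0.85, SE 0.14, adjusted p = 0.0714), followed by Xcl1 (3.00, SE 0.55, adjusted p = 0.106) and Tmem154 (-0.77, SE 0.16, adjusted p = 0.294), a transmembrane protein that did not differ past the threshold in CD4.

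**Figure D5:**
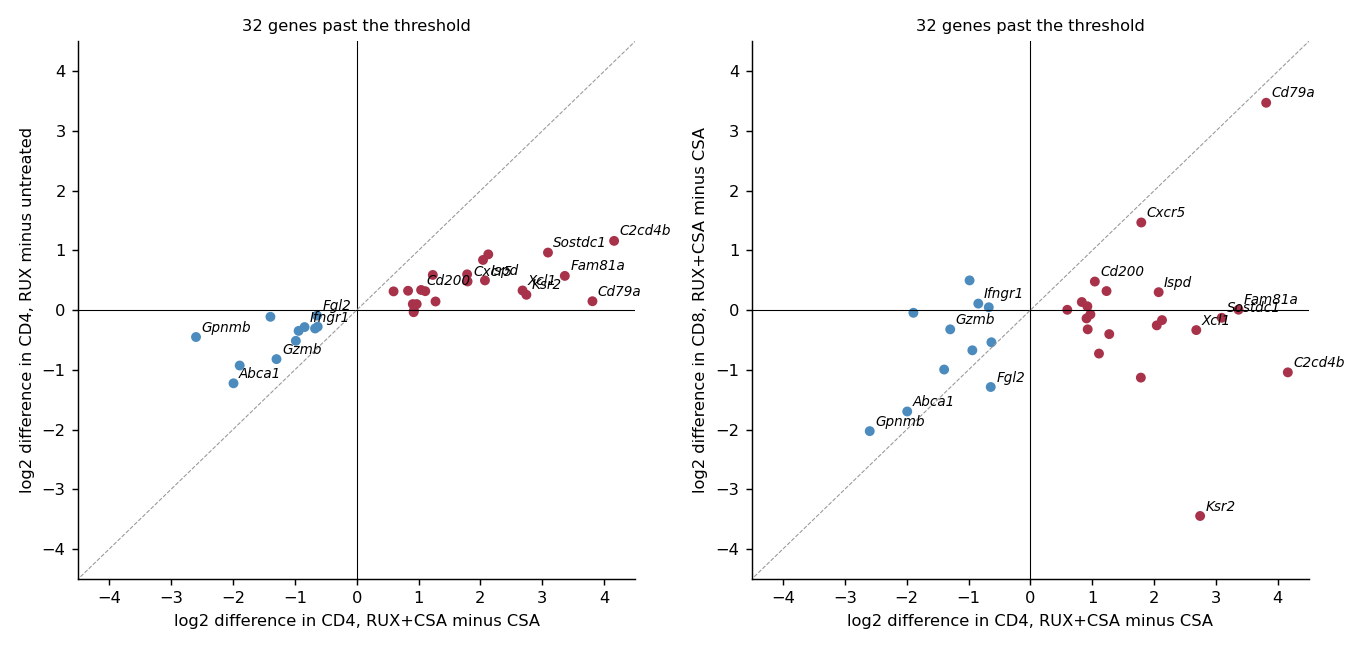
Log2 difference in CD4, RUX+CSA minus CSA (horizontal), against RUX minus untreated in CD4 (left) and RUX+CSA minus CSA in CD8 with all CD8 libraries (right), for 32 of the 37 genes, red for higher and blue for lower in RUX+CSA, with the line of equality dashed. Genes with a group at 0 and Ly6d, whose CD8 value lies outside the axes, are not drawn. In CD8, Cxcr5 and Cd79a lie near the line of equality on the higher side, and the left-hand points lie nearer 0 on the vertical than on the horizontal axis, by which they were chosen.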

How the data were processed

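The deposited values are raw counts, whole numbers of read pairs per gene, checked on the file. Per the file headers, featureCounts 2.0.3 counted pairs over exons by gene symbol in a UCSC mm10 annotation, ignoring strand, with every library in the same run. Reads had been aligned to mm10 with STAR, per the submitters' processing notes, and the libraries were made with a SMART-Seq kit per the labels.

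From the 24421 genes, edgeR 4.0.16 in R 4.3.3 kept 13175 (filterByExpr), scaled by TMM and fitted the 12 CD4 libraries with a robust quasi-likelihood model, so that all 4 groups shared the spread (biological coefficient of variation 0.279). The comparison with CD8 fitted all 24 libraries (13476 genes). P-values are two-sided with Benjamini-Hochberg adjustment over all genes. Gene levels are CPM of TMM-scaled totals, and list sums are CPM of all counted pairs. Correlation used log2 CPM with a prior count of 2. A floor of 3 reads corresponds to 0.0969 to 0.17 CPM and covers counting error only. limma 3.58.1 and DESeq2 1.42.0 served as alternatives. Scripts were tested on simulated data.

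Named genes were the 10 highest and lowest by log2 difference among called genes whose groups were apart and whose mean log2 CPM was 3 or more, places left over being filled by smallest p, 20 preset genes, the 2 smallest p of each of 39 lists, and the top genes of the difference tests; the other genes past the threshold, and some list members, were named after their values were seen. Members and lists were chosen with earlier results of these data known. Gene positions are mm10 spans from the file; promoters are from RefSeq. Some genes that this rule names are not reported here.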

Additional observations from a re-analysis of the deposited data

How the results depend on the processing

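The 37 calls became 201 with DESeq2 (36 shared), 77 without a low-count filter, 69 with the 6 libraries fitted alone, and 0 with the B cell marker covariate. Leaving out 1 of the 6 compared pools gave 1 to 31 calls: no gene was called in all 6 such analyses and 8 in none. Without untreated pool 14 it was 55, the 37 among them. Scaling by library totals gave 34, size factors 38, limma-voom 31, a filter of at least 1 CPM in 3 libraries 36 and the macrophage covariate 42. The other-cell marker covariate, the mean over neutrophil, erythroid, B cell and macrophage markers together, gave 36, of which 31 were among the 37. Of its variance 50.4% lay between the 4 CD4 groups. With all 24 libraries in the fit 53 passed, 22 higher and 31 lower, of which 16 were among the 37. The interaction count of 0 became 17 with DESeq2 and 1 without the filter, and 0 to 6 without a pool (6 without untreated pool 15). The count of 0 for CD4 against CD8 became 14 with DESeq2, 1 with the other-cell marker covariate, 1 without CD8 CSA pool 6 and CD8 RUX pool 7, and 0 to 1 without a pool. No paired analysis was possible because the groups share no pool numbers.

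None of the genes whose sign reversed had passed. Leaving out a pool moved the log2 value of Cd4 over -0.029 to 0.17, Cd8a -1.26 to 0.11, Chil3 -0.87 to 0.12, Fasl -0.24 to 0.068, Foxp3 -0.15 to 0.063, Gbp2 -0.23 to 0.26, Irf1 -0.22 to 0.043, Mmp9 -0.75 to 0.0022, Socs1 -0.17 to 0.21 and Socs3 -0.23 to 0.060. Gbp2 was 0.041 with limma-voom and 0.0071 with 6 libraries alone. With the B cell covariate Atf6 was 0.13, Cd4 -0.17, Fasl 0.54, Gnl3 0.11, Ifng -0.014, Kit -0.15, Klre1 -0.41, Pecam1 -0.31, Siglech -6.42 and Zfp36l1 -0.050. With the macrophage covariate Bcl2 was 0.019, Chil3 0.061, Gbp2 0.019, Il2ra 0.015, Mmp9 0.0017 and Socs3 0.040. Of the other gene values, 125 fell short of the threshold and 37 newly passed it under these settings, the 2 covariates added later left aside, and 64 of the recomputed list medians moved past the spread. The causes were not tested.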
